A study of Mus musculus with 2 samples.

Results

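Of the 12556 EHMT2 peaks in the pooled list, 809 on chromosomes 1 to 19 and X were at least 1000 bp wide, and these broad peaks are described here. They were chosen by their deposited width alone, with the end minus the start at 1000 bp or more, so their width, and the strength measures of the same peak call, are given as description and support nothing. The other 11732 peaks on these chromosomes were narrower and serve as the comparison. The 13 peaks on chromosome Y and the 2 on the mitochondrial genome held no member, with a highest width of 641 bp on Y.

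The data are 2 ChIP-exo libraries, replicates of 1 group, from KH2 mouse embryonic stem cells of a BL6/129 hybrid background. All cells carried the EHMT2-dTAG-mcherry allele, in which a degron, HA tags and an mCherry reporter follow the endogenous Ehmt2 coding sequence, and were grown on feeders in serum with LIF and given DMSO, the solvent control, for 24 h. ChIP-exo trims immunoprecipitated DNA with an exonuclease up to the crosslinked protein, and here the antibody was against HA. The replicates were merged before peaks were called, and neither a control antibody nor cells without the tag entered the comparisons here, so no value below has a replicate error and no comparison could be tested between samples. Intervals are 95% intervals and cover counting error over peaks only.

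EHMT2, also called G9a, writes dimethylation on lysine 9 of histone H3, a mark of repressed chromatin. LINE-1 elements are retrotransposons that copy themselves through an RNA, and a full-length element holds a promoter followed by a pair of open reading frames. The first frame encodes an RNA-binding protein, and the longer second frame encodes an endonuclease and a reverse transcriptase. In the mouse the promoter is built of repeated units called monomers, placed head to tail, and the number of units differs between elements. Repeat names were not assigned to peaks here, so the peaks are described by their sequence, by the copies of it in the genome and by the reading frames beside it.

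With 5 exceptions, broad peaks fell into a single family of linked sequences that held 3 different repeat units. When the 301 bp around each summit were aligned all against all, 804 of 809 broad peaks (99.4%, interval 98.6 to 99.7) fell into the largest family, joined by 80% identity over at least 150 bp. Families were chained through shared neighbours, so members need not be alike pair by pair. That family held 6246 peaks in all, and 5442 of 11732 narrow peaks (46.4%, 45.5 to 47.3). The other 5 broad peaks were each alone in a family among the broad peaks. At 95% identity over 250 bp the family split, and 802 of the 809 broad peaks lay in 3 groups whose sequence repeated itself in tandem with a unit of 212, 208 or 206 bp. The 212-bp group held 570 broad peaks, the 208-bp group 195 and the 206-bp group 37.

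The unit at the summit is shown for each group. In the 212-bp and 208-bp groups, though less so in the 206-bp group, broad peaks stood on more such units than narrow ones, as described below. Each comes from the broad peak of the group with the most exact genomic copies of the 50 bp at its summit, among those with whole units on both sides of the summit. The sequences were taken from GRCm38.p6, whose coordinates equal those of mm10, and are read along the strand that runs towards the open reading frames. Capitals mark the 20 bp of the unit in which the most broad summits of that group fell.
212-bp group, chr2:19581766-19581977, + strand: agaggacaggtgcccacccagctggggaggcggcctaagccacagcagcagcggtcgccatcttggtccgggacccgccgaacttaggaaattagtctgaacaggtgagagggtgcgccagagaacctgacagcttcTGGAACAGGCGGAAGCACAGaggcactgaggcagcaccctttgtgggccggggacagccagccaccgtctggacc
208-bp group, chr5:68221687-68221894, - strand: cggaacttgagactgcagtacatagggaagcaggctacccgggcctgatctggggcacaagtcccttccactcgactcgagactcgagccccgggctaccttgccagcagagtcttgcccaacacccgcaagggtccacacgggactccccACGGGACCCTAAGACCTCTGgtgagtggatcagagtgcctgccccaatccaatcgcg
206-bp group, chr4:73295137-73295342, + strand: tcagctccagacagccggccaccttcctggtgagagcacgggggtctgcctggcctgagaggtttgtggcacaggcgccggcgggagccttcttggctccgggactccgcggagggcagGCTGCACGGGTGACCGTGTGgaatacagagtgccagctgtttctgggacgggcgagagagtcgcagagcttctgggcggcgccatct
The unit that follows the first of these is shown to make the repetition visible, with capitals at the bases that differ from the unit before it.
212-bp group, next unit, chr2:19581978-19582189, + strand: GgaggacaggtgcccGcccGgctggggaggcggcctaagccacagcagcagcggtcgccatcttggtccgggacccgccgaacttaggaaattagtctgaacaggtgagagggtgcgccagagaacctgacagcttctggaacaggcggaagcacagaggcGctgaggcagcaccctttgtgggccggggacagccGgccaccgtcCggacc
These neighbouring units differed at 6 of 212 positions, an identity of 97.2%. In the 206-bp example the following unit was the same at every base, and in the 208-bp example 4 bases differed. The 3 units themselves were far less alike. With the best rotation, the units of the 212-bp and 206-bp groups were 60.8% identical, those of the 212-bp and 208-bp groups 52.8% and those of the 208-bp and 206-bp groups 51.4%.

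The summit 50 bp of the 212-bp example occurred 4870 times in the assembly, that of the 208-bp example 3911 times and that of the 206-bp example 1178 times. The letters GCCATCTT, the core of the motif of the zinc finger factor YY1, stand in the printed 212-bp unit. Searched on both strands in 300 bp centred on the summit, they were present at 568 of 570 broad peaks of the 212-bp group and at 37 of 37 of the 206-bp group, but at 25 of 195 of the 208-bp group. Narrow peaks held them at 729 of 734 in the 212-bp group, 279 of 406 in the 206-bp group (68.7%) and 717 of 3712 in the 208-bp group (19.3%), and at 17.9% over all narrow peaks. Of the promoters, 903 of 32851 in RefSeq, taken at the same length, held them (2.75%). In the 212-bp group the nearest match lay at a median of -81 bp from the broad summit, that is, upstream of it. The motif was looked for after the units had been read, and a match says only that the letters are there.

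The broad peaks were 1197 bp wide at the median, with quartiles of 1075 and 1375 bp. There were 408 under 1200 bp and 25 of 2000 bp or more. At the summit they reached a median of 48 fragments, recovered from the deposited values, with a range of 9 to 94. The median fold enrichment over the local background was 10.7 and the median −log10 q was 32.4. Narrow peaks had medians of 202 bp, 8 fragments, 5.11-fold and 3.91. All these values come from the call that set the width.

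The widest peak, chr8:52303787-52308504, spanned 4718 bp and lay in the 212-bp group, 1207 kb from the nearest coding start site. It had 71 fragments at the summit over a background of 12.9, the highest background of any broad peak, and its fold was 5.19. No control library entered the call, so the background and the folds rest on the same reads as the peak. The next widest were chrX:91841003-91844260 with 3258 bp, chr5:68219277-68222111 with 2835 bp, chr5:17244124-17246861 with 2738 bp and chr15:91991139-91993855 with 2717 bp. Their folds lay between 5.95 and 6.95, below the median of the broad peaks. These 4 peaks stood on arrays of 14.1 to 16 units, and the widest of all on 8.92 units.

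The 5 peaks with the highest −log10 q were not among the widest. The first, chr7:82213390-82214556, lay in an intron of Sh3gl3, which encodes an endophilin of vesicle endocytosis, and had 85 fragments, 17.2-fold enrichment and a −log10 q of 73.5. The second, chr1:18537174-18538670, had 94 fragments, the highest pileup of all broad peaks. Next came chr5:86368472-86369535 in Tmprss11d, a membrane serine protease gene, with 74 fragments and the highest fold of the broad peaks, 18.5. The others were chr2:13658028-13659180 in the sialyltransferase gene St8sia6, with 79 fragments, and chr4:83958815-83959864 outside coding genes, with 73. All 5 were of the 212-bp group, and 4 of them had arrays of 4.05 to 7.15 units.

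At the threshold, members and non-members were alike in kind. The narrowest broad peaks were 3 peaks of 1000 bp on chromosomes 12, 14 and 17, with 23, 28 and 34 fragments and arrays of 4.09, 4.09 and 3.88 units. Just outside it were a peak of 999 bp in Lmbr1 on chromosome 5, with 48 fragments and 5.43 units, and peaks of 998 bp on chromosomes 4 and 6 with 29 and 45 fragments. All 6 belonged to the 212-bp or 208-bp group.

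Most broad peaks lay at the head of long open reading frames, as did most narrow peaks of the 212-bp group. Outside annotated coding sequence, the assembly held 5502 frames of 1000 codons or more, with a median of 1300 codons. Of these, 78.5% contained FADD, a form of the residue signature of reverse transcriptases. A summit lay within 3 kb upstream of such a frame at 652 of 809 broad peaks (80.6%, 77.7 to 83.2), against 2753 of 11732 narrow peaks (23.5%, 22.7 to 24.2). Of the 652 frames beside broad peaks 649 contained FADD, as did 2683 of the 2753 beside narrow peaks (97.5%). Of the 672 broad summits within 8 kb of a long frame, 666 were upstream of it, 6 were downstream and 0 were inside. Narrow summits within 8 kb but outside a long frame were upstream at 2818 of 3005 (93.8%), and in the family at 2750 of 2786 (98.7%).

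Measured along the frame, the broad peaks occupied a narrow stretch. Their upstream edge lay at a median of -2424 bp from the start of the long frame, their summit at -1928 bp and their downstream edge at -1206.5 bp. A first frame of at least 300 codons was found before the long frame at 625 of the 652, with 384 codons at the median, and it began at -1138 bp, near the downstream edge of the peaks. The summit lay before that first frame at 624 of the 625, at a median of -736 bp from its start. The summits of narrow peaks beside long frames lay nearer to the frame, with a median of -1557 bp, and 88.5% of those with a first frame were before it. The groups are mixed in other shares here. Within groups the medians of broad and narrow summits were -1793.5 and -1704 bp in the 212-bp group. They were -2059 and -1478 bp in the 208-bp group and -1981.5 and -1737 bp in the 206-bp group.

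**Figure D1:**
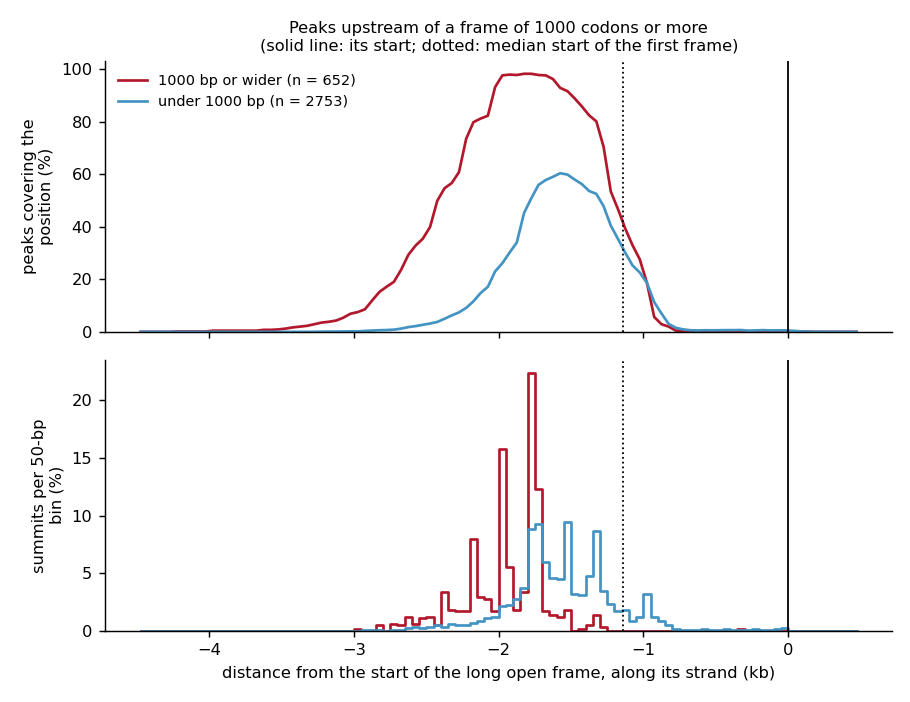
Top, share of peaks beside a long open reading frame that cover each position, in percent, and bottom, share of their summits in each 50-bp bin, against the distance from the start of the long frame in kb, for 652 broad (red) and 2753 narrow (blue) peaks. Broad peaks lie mostly between -2424 bp and -1206.5 bp, the medians of their edges, and the summits of both sets fall in spikes that repeat along the frame.

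Over all broad peaks the summit sat towards the upstream end, but not in the widest. Read from the lower coordinate, its median position was 47.4% of the width (44.5 to 50.2), close to the middle. Once each peak was turned to the strand of its family, the median became 35.3% (32.8 to 37.3), and 602 of 804 summits (74.9%) lay in the upstream 50% of the peak. At the 117 broad peaks of 1500 bp or more the median was 48.3% (42.6 to 55.3), near the middle. The fullest bin was that from 20 to 30% of the width, with 268 summits. In distance, the summit was a median of 440.5 bp from the upstream edge and 761.5 bp from the downstream edge. Narrow peaks of the family had a median of 43.1% (42.4 to 43.9). Narrow peaks with at least 31 fragments, the lower quartile of the broad peaks, had a median of 34.6% (34.0 to 35.5), which overlaps that of the broad peaks.

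Within the unit, summits had a preferred place. In the 212-bp group 568 of 570 broad summits could be placed in the printed unit with at least 80% identity over 61 bp, and 349 of them (61.4%, 57.4 to 65.4) fell in the 20 bp in capitals, positions 138 to 157 counted from the first printed base. An even spread would put 9.43% there. Narrow peaks of the group had 404 of 733 (55.1%) in the same 20 bp. In the 208-bp group 156 of 195 broad summits could be placed and 39 (25%) were in the fullest 20 bp, positions 152 to 171. In the 206-bp group it was 13 of 35 (37.1%), at positions 120 to 139. The window was chosen on the broad summits of each group, so these shares describe it and are no test. Reads from 1 unit can be assigned to another of the same array or element, which limits how finely a summit can be placed among units.

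**Figure D2:**
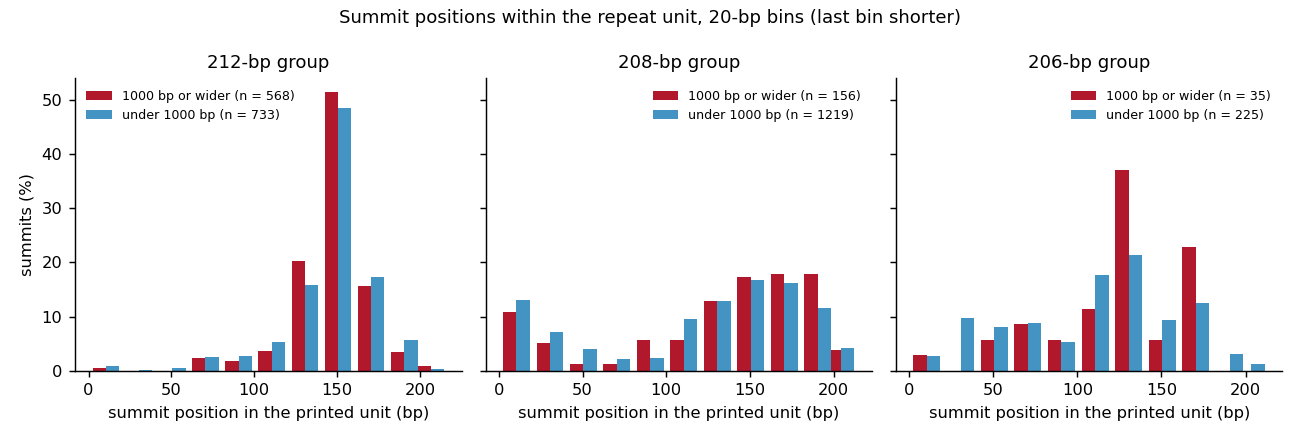
Share of summits, in percent, in 20-bp bins of the printed repeat unit of each group, for broad (red) and narrow (blue) peaks. The 212-bp group has 51.4% of broad and 48.4% of narrow summits in the bin from 141 to 160 bp, while the 208-bp group is spread over more bins.

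Broad peaks of the 212-bp and 208-bp groups stood on longer tandem arrays than narrow peaks of the same group. Within 500 bp of the summit, 598 of 809 broad peaks (73.9%, 70.8 to 76.8) matched themselves at a shift of 20 to 500 bp with 70% identity or more, against 904 of 11732 narrow peaks (7.71%, 7.24 to 8.20) and 549 of 5442 narrow peaks of the family (10.1%). This match is scored over the whole 1001 bp, so a shorter array can fall under 70%. The groups were mixed in other shares in these sets, with 570 of 809 broad peaks but 734 of 5442 narrow peaks of the family in the 212-bp group, so arrays are compared within groups. The most frequent shifts among the broad peaks were 212 bp at 341 peaks, 208 bp at 112 and 424 bp, which is 2 units of the first, at 60. The array, the stretch over which neighbouring units stayed alike, could be measured at 777 broad peaks and had a median of 979 bp or 4.62 units. In the 212-bp group the median was 4.14 units in 563 broad peaks (4.08 to 4.27) and 2.31 units in 691 narrow ones (2.25 to 2.55). In the 208-bp group it was 6.11 in 177 broad peaks (6.01 to 6.34) and 3.09 in 1284 narrow ones. In the 206-bp group the medians of 3.00 in 37 broad peaks (2.01 to 4.01) and 2.39 in 263 narrow ones were close.

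The share of peaks that were broad was higher on longer arrays, though not at every step. Among 212-bp peaks on arrays of 2 to 3 units 48 of 401 were broad (12%), on 3 to 4 units 136 of 328 (41.5%), on 4 to 5 units 167 of 215 (77.7%) and on 5 to 6 units 100 of 105 (95.2%). The 208-bp group took more units to reach the same width. On 4 to 5 units 18 of 231 were broad (7.79%), on 5 to 6 units 32 of 110 (29.1%) and on 6 to 8 units 65 of 83 (78.3%), while above 8 units it was lower, at 38 of 56 (67.9%). In the 206-bp group the share stayed between 8.40 and 12% up to 5 units and was 5 of 10 at 5 to 6.

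The same order of shares was found in the 212-bp group above a floor on pileup. Restricted to peaks with at least 31 fragments, 62 of 435 on up to 3 units were broad (14.3%), 135 of 321 on 3 to 4 (42.1%), 167 of 213 on 4 to 5 (78.4%) and 197 of 204 on more than 5 (96.6%). The floor did not make pileup equal, since its medians in these bins were 41, 49, 54 and 57 fragments. Above the floor 561 broad peaks had a median of 4.14 units and 612 narrow ones 2.55 (2.32 to 2.79), with median pileups of 53 and 43. The 212-bp and 208-bp groups also differed in pileup, with medians of 53 and 26 fragments at their broad peaks and 41 and 11 at their narrow ones. Broad peaks made up 43.7% of the 212-bp group (41.0 to 46.4), 4.99% of the 208-bp group (4.35 to 5.72) and 8.35% of the 206-bp group (6.12 to 11.3).

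The edges of the broad peaks followed the array in the 212-bp group, as did those of narrow peaks. In the 212-bp group the upstream edge lay a median of 35 bp inside the upstream end of the array, and within 100 bp of it at 473 of 563 peaks (84.0%). The downstream edge ran a median of 305 bp past the last unit, and the peak covered 96.2% of its array at the median. Narrow peaks of the group had 28 bp, 651 of 691 within 100 bp (94.2%), 295 bp past the last unit and 94.4% covered. On the same scales the medians of the 208-bp group were 80 bp at the upstream end and -5 bp at the downstream end, where a negative value is short of the end, and 90.4% of the array was covered, with 104 of 177 upstream edges within 100 bp (58.8%). The 206-bp group differed. Only 7 of its 37 upstream edges were within 100 bp (18.9%). There the upstream edge had a median of -357 bp, which places it before the measured array, and the array took up 47.1% of the peak. Over the 777 broad peaks with an array, width and array length had a Spearman correlation of 0.56 and a Pearson correlation of 0.48. Width and fragments at the summit had 0.17 and 0.13. Width was cut off at 1000 bp in this set and the peaks share their reads with other copies, so these coefficients describe the list only.

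**Figure D3:**
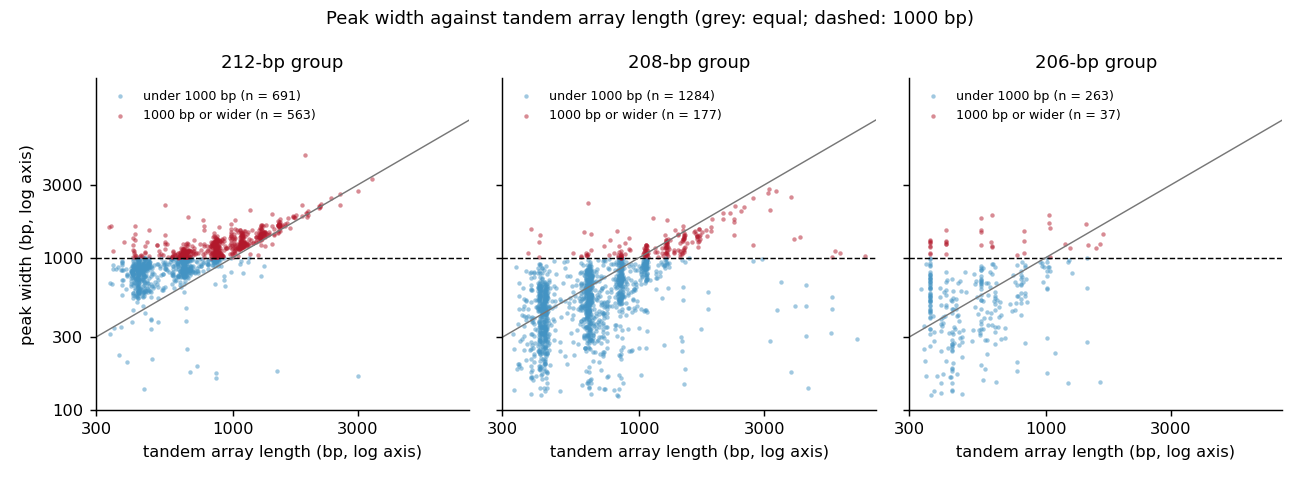
Peak width against the length of the tandem array at the summit, both in bp on log axes, for the 212-bp, 208-bp and 206-bp groups, with broad peaks in red, narrow peaks in blue, the 1000 bp threshold dashed and equal values as a grey line. In the 212-bp group (563 broad and 691 narrow peaks) width rises along the grey line once the array passes about 1000 bp, and arrays line up at whole numbers of units.

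The same was seen starting from the frames, without reference to peaks. Upstream of 3250 of the 5502 long frames a tandem array with a unit of 200 to 220 bp was found within 5 kb. The share of frames with any summit in those 5 kb was 79.4% (993 of 1251) at 2 to 3 units, 81.6% at 3 to 4, 86.5% at 4 to 5 and 86.6% at 5 to 6. The share with a broad peak was 5.20% (65 of 1251), 19.6% (144 of 735), 38.7% (161 of 416) and 54.6% (118 of 216) in the same bins. At 6 to 8 units 125 of 186 frames had a broad peak (67.2%, 60.2 to 73.5), and above 8 units 43 of 57 (75.4%). Of the 2252 frames with no array 518 had a peak (23.0%) and 0 of 2252 had a broad one, which allows a share of up to 0.133% at 3 counts of the total (the Wilson upper limit is 0.170%). For 212-bp arrays alone, 119 of 338 frames with 3 to 4 units had a broad peak (35.2%) and 90 of 107 with 5 to 6 units (84.1%), but 67 of 95 with 6 to 8 units (70.5%).

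**Figure D4:**
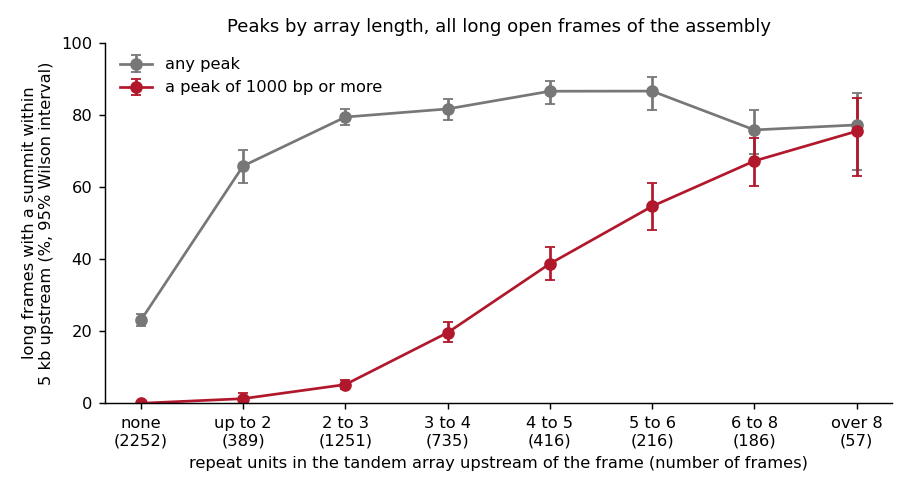
Share of long open reading frames, in percent with 95% Wilson intervals, that have any peak (grey) or a broad peak (red) within 5 kb upstream, by the number of repeat units in the array there, with the number of frames under each bin. Any peak stays between 65.8 and 86.6% in the 7 bins with an array, while broad peaks rise from 1.29 to 75.4%.

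In base composition broad peaks were rich in G and C. The 200 bp at the summit had a median GC content of 65.2%, against 49.8% at narrow peaks and 59.2% at narrow peaks of the family. These sets mix the groups in other shares. Within groups the medians of broad and narrow peaks were 65.7% and 65.2% in the 212-bp group and 66.7% and 66.2% in the 206-bp group. In the 208-bp group they were 62.7% and 56.7%. In 1001-bp windows of 1 size for all peaks it was 62.3%, 47.6% and 51.7%, and the observed to expected ratio of CpG was 0.569, 0.317 and 0.441. Every base of the peak was soft-masked as repeat at 755 of 809 broad peaks (93.3%, 91.4 to 94.8), against 71.9% of narrow and 96.7% of family narrow peaks. The 50 bp at the summit occurred at least 2 times in the assembly at 802 of 809 broad peaks (99.1%), and more than 1000 times at 395 (48.8%). For narrow peaks these shares were 79.7% and 30.8%, and for narrow peaks of the family 98.1% and 53.2%.

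Copies were high along the whole peak and not at the summit alone. With 50-mers taken every 10 bp, the median number of copies along a broad peak was 1422 (median over peaks), and the highest number in a peak was 4870 at the median and 5746 at most. Only 3.01% of the 99560 50-mers sampled were unique, and 331 broad peaks held none. The copies at the summit were at or above the median over the sampled 50-mers of the same peak at 369 of 809 (45.6%). The authors placed each read that had several equally good sites at 1 of them at random, so which copy such reads came from cannot be told apart.

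There were 7 broad peaks whose summit 50 bp occurred a single time in the assembly. Of these, 5 were of the 212-bp group, on chromosomes 1, 4, 6 and 10, with 34 to 48 fragments and 2.59 to 8.67 units. The peak chr1:61497652-61499518, at 1867 bp the widest of the 7, had 48 fragments and 8.57-fold enrichment. Another was of the 208-bp group, in Adamtsl1, with 13 fragments and no measurable array, and the last was the Gltp peak described next.

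Of the 5 broad peaks outside the family, 2 passed 70% identity for tandem similarity, and 4 lay in a gene. The peak in Arnt, which encodes the partner of the aryl hydrocarbon receptor, spanned chr3:95471545-95472612 and had 9 fragments, the fewest of all broad peaks, with a GC content of 31.3%. It repeated with a unit of 46 bp at 91.3% identity. The peak in Gltp, a glycolipid transfer protein gene, spanned chr5:114671581-114672669, had 20 fragments and repeated with 69 bp at 92.3%. The units at these summits are shown because the peaks fell outside the family, with capitals at bases of the following unit that differ.
Arnt, chr3:95472221-95472266, + strand: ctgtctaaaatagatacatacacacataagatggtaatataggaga
Gltp, chr5:114672237-114672305, + strand: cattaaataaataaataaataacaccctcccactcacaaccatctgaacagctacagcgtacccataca
Gltp, next unit, chr5:114672306-114672374, + strand: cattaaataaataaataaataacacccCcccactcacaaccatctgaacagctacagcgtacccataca
The other 3 were chr2:130208243-130209672 in Tmc2, a channel protein gene of inner ear hair cells, with 30 fragments, chr2:172204450-172205835 with 50 fragments, whose nearest coding start site was that of the melanocortin receptor gene Mc3r, 43.7 kb away, and chr8:125804924-125806116 in Pcnx2, with 14. Their best shifts were 357, 20 and 49 bp at 67.2 to 69.1% identity, under the 70% used for tandem similarity, and 20 bp is the shortest shift searched. Their 50 bp at the summit are given so that the 5 can be set beside the family.
Tmc2, chr2:130209115-130209164, + strand: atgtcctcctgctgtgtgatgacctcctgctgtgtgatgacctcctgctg
Mc3r, chr2:172204749-172204798, + strand: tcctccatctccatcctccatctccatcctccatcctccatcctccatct
Pcnx2, chr8:125805141-125805190, + strand: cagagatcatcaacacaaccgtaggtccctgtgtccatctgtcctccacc
The Pcnx2 and Tmc2 peaks were the 2 broad peaks with under 50% soft-masked bases, at 0% and 1.75%.

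Narrow peaks with as many fragments as the lower quartile of the broad peaks were like them in some features and not in others. The floor was set on the narrow peaks only, so pileup was not matched. The 803 narrow peaks with at least 31 fragments lay upstream of a long frame in 82.4% (79.7 to 84.9), were wholly soft-masked in 95.5% (93.9 to 96.7) and had a median GC of 65.2% at the summit, all with intervals that overlap those of the broad peaks. Tandem similarity of 70% or more was found at 15.1% of them (12.8 to 17.7), against 73.9% of broad peaks. The score covers 1001 bp, so a low share does not mean that arrays were absent. In the 212-bp group an array was measured at 691 of 734 narrow peaks (94.1%) and 563 of 570 broad ones (98.8%). Tandem similarity passed 70% at 12.8% and 71.8% of them. Their summit 50 bp occurred 1686 times at the median (1478 to 1722), more than the 940 (935 to 1168) of the broad peaks.

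**Figure D5:**
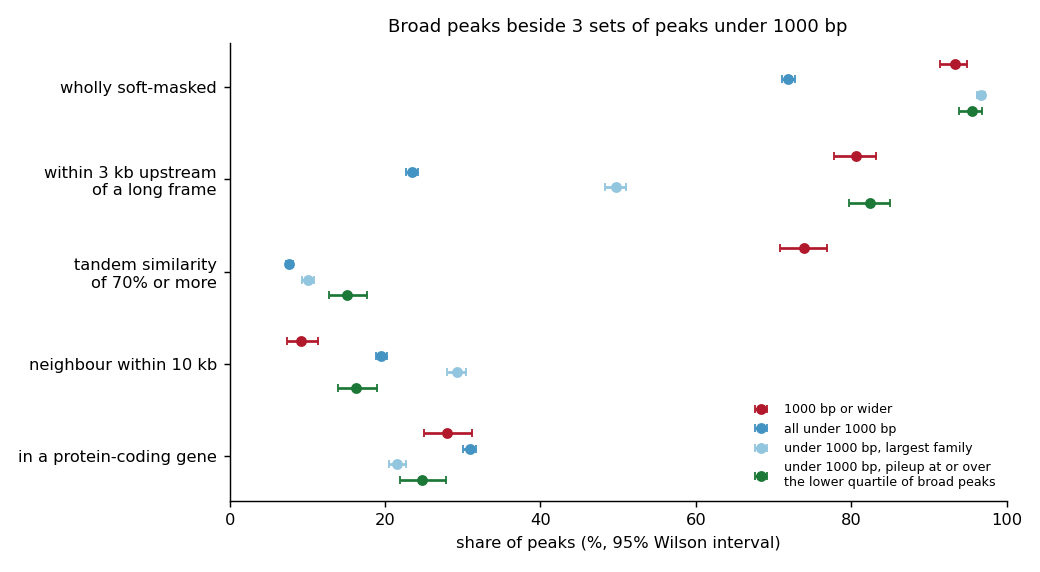
Share of peaks with each feature, in percent with 95% Wilson intervals, for broad peaks (red), all narrow peaks (blue), narrow peaks of the largest family (light blue) and narrow peaks with at least 31 fragments (green). Red and green points nearly coincide for soft-masking and long frames and stand apart for tandem similarity, at 73.9% and 15.1%.

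Few broad peaks had another peak close by. A neighbouring summit lay within 10 kb at 74 of 809 (9.15%, 7.35 to 11.3), against 19.5% of narrow peaks, 29.2% of narrow peaks of the family and 16.3% (13.9 to 19) of narrow peaks with at least 31 fragments. The median distance to the nearest other summit was 60672 bp, and 55454.5 bp for narrow peaks. Of the 74 neighbours 59 were of the same family, 52 of those 59 on the same strand, and 20 of the 74 lay upstream of the same long frame. Where family and strand were shared, 39 of 52 neighbours were downstream of the broad summit. Only 9 of the 74 nearest neighbours were broad themselves.

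Broad peaks lay far from gene starts. The nearest coding start site was a median of 152392 bp away (136191 to 173843), against 103204 bp for narrow peaks and 169533 bp for narrow peaks of the family, and 5 of 809 were within 2.5 kb of one. A protein-coding gene body held 226 of the 809 (27.9%, 25 to 31.1), while such genes cover 40.5% of the assembled bases of these chromosomes. For narrow peaks the share was 30.9%, and 21.6% (20.5 to 22.7) for narrow peaks of the family. A single broad summit was in an exon of a protein-coding gene, that of chr4:88286853-88288047 in Focad, which encodes the adhesion protein focadhesin, with 72 fragments and 4.15 units on the opposite strand. The 206 host genes were long, with a median of 304 kb against 17.4 kb for all 21755 protein-coding genes. Of the host genes 85.0% exceeded 100 kb, against 11.4% of all. Longer genes offer more bases for a summit to fall in, and these values take no account of that. Counted per peak, the host gene had a median length of 337938 bp (268764 to 406095) for broad peaks and 346979 bp (320642 to 381885) for narrow peaks of the family, with intervals that overlap.

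Broad peaks in genes ran more often against the gene than with it. By the strand of the long frame, 116 of 193 were opposite to the host gene (60.1%, 53.1 to 66.8), and by the strand of the family 132 of 222 (59.5%, 52.9 to 65.7). The frame and family strands were the same at 649 of 652 peaks. Narrow peaks of the family were opposite in 724 of 1174 (61.7%, 58.9 to 64.4), so the intervals of broad and narrow peaks overlap. In the 208-bp group 38 of 52 were opposite (73.1%, 59.7 to 83.2) and in the 212-bp group 89 of 161 (55.3%, 47.6 to 62.7), with intervals that overlap.

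The gene with the most broad peaks was Nell1 on chromosome 7, which encodes a secreted protein studied in bone formation, with 4 broad peaks among 8 in its 892 kb. All 4 ran against the gene. The first, chr7:50059938-50060952, had 43 fragments and 3.06 units of 212 bp. The second, chr7:50147956-50149318, had 36 fragments and 7.12 units of 208 bp, and the third, chr7:50370838-50372109, had 29 fragments and 6.09 units of 208 bp. The fourth, chr7:50529335-50530522, had 47 fragments and 4.08 units of 212 bp. Their folds, from 9.39 to 11.2, were near the median of the broad peaks.

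Another 17 genes held 2 broad peaks each. Among the longest was Il1rapl1, a synaptic adhesion receptor gene of 1375 kb, with 19 and 42 fragments at its peaks. Galntl6, a glycosyltransferase gene, Adgrb3, an adhesion receptor gene, and Fgf12, a growth factor homologue, had both peaks on the opposite strand. In Tenm1, a teneurin gene with 53 and 71 fragments, and in Agbl1, a carboxypeptidase gene with 14 and 18, 1 of the 2 was opposite. The same held for Malrd1, linked to bile acid control, with 31 and 43 fragments, and for Unc5d, of the netrin receptor family, with 42 and 57.

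Most 1-Mb windows with a broad peak held just 1. There were 634 such windows, of which 495 held 1, 105 held 2, 32 held 3 and 2 held 4. The windows with 4 were chr7:50000001-51000000, which holds most of Nell1, and chr11:13000001-14000000, where no protein-coding gene is annotated. Among those with 3, the first in genome order were chr1:61000001-62000000, with Icos and Pard3b, chr1:114000001-115000000, without a coding gene, and chr1:117000001-118000000.

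Broad peaks were denser on chromosome X than on the autosomes, but their share on X was near that of narrow peaks of the family. It had 104 of the 809, and 10.2% of its 1022 peaks were broad (8.47 to 12.2), against 6.12% on the autosomes (5.70 to 6.57). Per 10 Mb of assembled sequence there were 6.36 on X and 2.94 on the autosomes. Autosomes ranged from 1.20 per 10 Mb on chromosome 19, with 7 broad peaks, to 4.34 on chromosome 4, with 66. Among long frames with more than 4 units upstream, 59 of 95 on X had a broad peak (62.1%, 52.1 to 71.2) and 388 of 780 on the autosomes (49.7%, 46.2 to 53.2), with intervals that overlap. Chromosome X held 12.9% of broad peaks (10.7 to 15.3) and 10.8% of narrow peaks of the family (10.0 to 11.7), with intervals that overlap. In the 212-bp group 11.2% of broad and 11.9% of narrow peaks were on X, and in the 208-bp group 14.4% and 10.7%. In the 206-bp group it was 12 of 37 broad peaks (32.4%) and 45 of 406 narrow ones (11.1%).

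Fixed lists of the H3K9 pathway and of the early embryo each held at most 1 gene near a broad peak. Of 21755 protein-coding genes 846 (3.89%) had one in the body or within 100 kb. Of 16 H3K9 methylation genes, which include the enzymes Ehmt1, Ehmt2 and Setdb1 and the readers Cbx1, Cbx3 and Cbx5, only Cdyl, a chromodomain corepressor, had one, 92.4 kb away (6.25%), and Setdb1 lay 115 kb from the nearest. None of 19 LINE-1 silencing genes and none of 10 pluripotency factor genes had one. Of 31 genes active at the 2-cell stage only Tcstv3 did, 26.3 kb away (3.23%). The lists are too short for counts of 0 or 1 to be set against that share.

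Among gene families fixed by symbol, the Vmn1r vomeronasal receptors, which detect pheromones, had 37 of 209 genes within 100 kb of a broad peak (17.7%). The genes lie in clusters, and 8 broad peaks accounted for all 37. Of 1135 Olfr odorant receptor genes 71 were that near (6.26%), to 13 peaks. For Vmn2r genes it was 5 of 120, for Zfp zinc finger genes 14 of 397, for protocadherins 4 of 69, for symbols starting with Cyp 5 of 107, for Serpin genes 2 of 61 and for Slco genes 1 of 14. No Klr gene of 26 and no Ugt gene of 22 had a broad peak that near.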

How the data were processed

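Both ChIP-exo libraries (1 group, 2 replicates, DMSO for 24 h) were processed by the authors into a single peak list. Per the labels and the study's methods, reads were aligned to mm10 with STAR 2.7.10, and duplicates were removed with Picard 2.26.0. Reads with several equally good sites were each written at 1 site chosen at random. Peaks were called with MACS2 2.2.6 on the merged replicates without a control library, at a p-value cutoff of 0.05. The called peaks were then filtered to a q-value under 0.05, so the edges and the width come from the looser cutoff. The submitters' processing notes also name SAMtools 1.14, bedtools 2.30.0 and deepTools 3.5.1. The deposited columns are the start, end and summit, a score that is 10 times the −log10 q as a whole number, the fold enrichment (a ratio of pileup to local background at the summit), and both the p-value and the q-value as −log10. The list differs in length from the number of ChIP-exo peaks the study states, and the reason is not given in the sources used here. No raw counts or library totals were used here. The pileup at each summit, in fragments, was recovered as the whole number that satisfies both the deposited fold and −log10 p. A solution within 0.0001 existed for 99.99% of 12541 peaks and for all 809 broad ones, and it was the only one for 99.95%. No column of per-sample values exists in the list, so samples could not be compared.

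Members were chosen by width from the deposited coordinates, and the members and all lists were chosen with earlier results of these data known. Sequence and soft-masking came from GRCm38.p6, genes from GENCODE vM21 and promoters from RefSeq on the same build. The origin of the soft-masking is not given in the sources used here. Exact copies of the 50 bp at each summit were counted on both strands of chromosomes 1 to 19, X and Y. Families were built with minimap2 2.31-r1302 from 301 bp per summit, joined by single linkage. Tandem similarity is the highest identity of the 1001 bp around the summit with itself at any shift of 20 to 500 bp. An array was extended from the summit along the unit while neighbouring units stayed alike. Long frames run from stop codon to stop codon without annotated coding sequence, with 1000 codons or more. The steps for tandem shift and array length, pileup recovery and reading frames were tested on simulated data. Copy counts were checked by a direct search at 12 summits for each length, and all 12 were equal. The other steps were not tested on simulated data. Shares have Wilson intervals and medians have exact binomial intervals of order statistics, both at 95%, computed with scipy 1.17.1, and cover counting error only. No test was run, since the replicates were pooled and peaks are not replicates. The named peaks are the 5 widest, the 5 with the highest −log10 q, and 3 on either side of the threshold, and the named genes are the 10 coding genes with most broad peaks, the longer first, of which 1 is not reported here. Peaks outside the family, with unique summits, in an exon or in Nell1 were named after their values were seen. Of the named 2-cell-stage genes Zscan4a was not matched.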

Additional observations from a re-analysis of the deposited data

How the results depend on the processing

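No paired analysis was possible because both libraries belong to 1 group and were merged before peak calling, and leaving out a replicate was not possible either. Depth limits what a peak of few fragments shows, the cells were a BL6/129 hybrid, and arrays were measured on the C57BL/6J assembly, the strain of 1 parent, and array lengths in these cells were not measured.

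A q of 0.001 or lower kept all 809 broad peaks, and merging peaks under 10 kb apart left 799, with the shares and medians recomputed on them inside their intervals. Neighbour, array, motif and edge values were not recomputed on merged peaks. At a width of 800 bp or more there were 1575 peaks, with a median of 1175 copies of the summit 50 bp and tandem similarity at 54.2%. At 1500 bp or more there were 117, with a median fold of 8.99 and 100% in the largest family. Tandem similarity was at 93.2%, and 75.2% lay upstream of a long frame. Coding genes held 17.9% of them, 12.8% had a neighbour and the summit was at 48.3% of the width along the family strand. Of the few both in a coding gene and within 3 kb upstream of a long frame, 84.2% were opposite to the host gene (62.4 to 94.5). The summit 100 bp had a median of 424 copies. The largest family at 95% identity held 70.5% of broad peaks (chosen after seeing the data). Frames of 700 codons or more gave 88.5% upstream. Tandem similarity was 94.2% at 60% identity and 58.5% at 80%. All annotated genes held 33.6%. Neighbours were at 5.32% within 5 kb and 18.0% within 20 kb. Along the strand of the long frame the summit lay at 35.8% of the width.

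Against other sets of narrow peaks some differences, given as broad minus narrow, changed sign. Against those with at least 31 fragments they were -2.19 percentage points for whole soft-masking, -746 copies, -1.85 points for long frames, 3.15 points for coding genes and 0.706 points for summit position along the family strand. Against narrow peaks of the largest family they were -3.40 points for soft-masking, -204 copies and 6.36 points for coding genes. Against those at least 50% soft-masked coding genes came to 3.04 points, and against those of 500 bp or more to 1.48 points with -238 copies. The last set and the family were chosen after seeing the data. With all narrow peaks these differences were 21.4 points, 665 copies, 57.1 points, -2.96 points and -7.75 points in the first order. Tandem similarity and neighbours kept their direction in all 4 sets, with 49.2 to 66.6 points and -20.1 to -7.17 points. For neighbours the width rule can lower the broad share in each of these sets. The causes were not tested.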
